A study of Mus musculus with 12 samples.

Results

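The cell cycle and proliferation genes examined here are 37 mouse genes chosen by name for their known roles in division, of which 36 were found among the 16385 genes of the expression table. The cyclin D2 gene Ccnd2 was not analysed here. The genes fell into 4 roles: 10 DNA replication genes, 9 genes of G1 and the G1/S transition, 14 genes of G2 and mitosis, and 3 inhibitors of cyclin-dependent kinases (CDKs). A total of 33 of the 36 reached 1 FPKM (fragments per kilobase of exon, scaled to the mapped fragments of the library, the unit of the table) in at least 2 libraries and were tested, whereas Ccnd1, Cdk6 and Myc did not reach it and are given by their levels.

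All 6 groups were AtT-20 cells, a mouse pituitary corticotrope tumor line used as a model of the cells that make ACTH. The first 5 groups were populations expressing the Pax7 isoform Q-GL-, the isoform Q-GL+, the isoform Q+GL+, the related factor Pax3, or Pax7-465, a Pax7 with a C-terminal deletion, where Q and GL stand for a glutamine and a glycine-leucine pair that alternative splicing places in the paired DNA-binding domain. The study gives Pax3 as Q+GL- and heads its Pax7 mutants as Q+GL-, and no label of these groups names that isoform of Pax7. Differences between Pax7-465 and the isoform groups therefore mix the truncation with the isoform. The sixth, Pax7 NoTag, is labelled with the genotype Pax7 and no isoform, and no isoform is assumed for it here. The study's methods describe retroviral constructs with 3xFlag tags at both ends, transcribed from the CMV promoter, and populations pooled from many independent Geneticin-resistant colonies. They do not say how the untagged population that the NoTag label names was made. Each group had 2 ribosome-depleted RNA-seq libraries that the methods call biological replicates, and since nothing states that they came from separate cultures, the p-values measure only the spread between these libraries.

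Cells enter the division cycle when D-type cyclins with Cdk4 or Cdk6, and then E-type cyclins with Cdk2, inactivate the Rb family and free E2F factors to switch on replication genes in S phase. Cyclin A2, the B-type cyclins and Cdk1 then drive G2 and mitosis, whose genes are transcribed in a later wave controlled by the DREAM and MuvB complexes, B-Myb and FoxM1. The inhibitors p21 (Cdkn1a), p27 (Cdkn1b) and p57 (Cdkn1c) bind cyclin-CDK complexes and restrain both steps, and in the pituitary p27 is a known brake on proliferation.

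The 12 libraries of the table had no read counts, so their depth is unknown, and the Pax7 NoTag libraries stood apart from the others. Their FPKM values summed to between 627305 and 666609, against 413794 to 483161 in the other 10 libraries, and for 733 genes these 2 libraries alone had values above 0, while 117 genes were listed at 0 in both and above 0 in each of the other 10. The NoTag population is therefore given in its own comparison, in which the construct, the population and any difference in processing cannot be told apart. The Pax7 transcript was at 0.159 and 0.161 FPKM in the Pax3 cells, between 93.9 and 113 FPKM in the 4 groups with a named Pax7 form, and at 157 and 159 FPKM in Pax7 NoTag. The corticotrope markers Pomc and Tbx19 were detected in all libraries, with Pomc at 5112 FPKM or more.

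Promoter sequences were available for 29 of the 36 genes, as 32 promoters of 300 bases each, from 250 bases before to 50 bases after the RefSeq start in GRCm38.p6, the build of the files. A total of 3 short motifs were searched on both strands. The cell cycle homology region or CHR, through which MuvB complexes bind mitotic genes, was searched as TTTGAA and as its known variants, which read TTCGAA in one form and TTTAAA in another form. The NF-Y box was searched as CCAAT and the E2F site as GCGGGAA. None of these letter strings contains another. A CHR match was present in 12 of 12 promoters of the G2 and mitosis genes, in 4 of 10 replication promoters, in 1 of 7 promoters of the G1 and G1/S genes, and in 28.8% of the 32851 promoters in the table. The NF-Y box was present in 11 of 12 mitosis promoters and 9 of 10 replication promoters, against 37.4% of all promoters. The E2F letters were found in 4 of 10 replication promoters (Mcm3, both starts of Mcm7, and Rrm1), in 0 of 12 mitosis promoters, and in 4.60% of all promoters. Among the G1 and G1/S genes the E2F letters were found in the Cdk2 promoter alone. These matches are descriptions of the letters and say nothing about binding in these cells.

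Windows of 250 bases, from 200 bases before the start to 50 after it, are shown 5′ to 3′ along the gene for 3 mitosis genes that were lower and 3 replication genes that were higher in Pax7 NoTag under each of 3 scalings of the table. Capitals mark the matches. In Mki67 (chr7:135716330-135716579, minus strand) and Bub1 (chr2:127831810-127832059, minus strand) they are CHR and NF-Y matches, as they are in Kif11 (chr19:37376182-37376431, plus strand). In Mcm5 (chr8:75109309-75109558, plus strand) they are NF-Y boxes alone, whereas in Mcm7 (chr5:138171217-138171466, minus strand, the second of its starts) and Rrm1 (chr7:102441495-102441744, plus strand) they are NF-Y boxes and an E2F match.
Mki67: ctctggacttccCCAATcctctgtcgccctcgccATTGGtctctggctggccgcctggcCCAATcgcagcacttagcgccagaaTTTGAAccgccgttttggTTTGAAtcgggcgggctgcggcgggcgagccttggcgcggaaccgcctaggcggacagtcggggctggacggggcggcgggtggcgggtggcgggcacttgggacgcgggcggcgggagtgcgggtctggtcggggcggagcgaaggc
Bub1: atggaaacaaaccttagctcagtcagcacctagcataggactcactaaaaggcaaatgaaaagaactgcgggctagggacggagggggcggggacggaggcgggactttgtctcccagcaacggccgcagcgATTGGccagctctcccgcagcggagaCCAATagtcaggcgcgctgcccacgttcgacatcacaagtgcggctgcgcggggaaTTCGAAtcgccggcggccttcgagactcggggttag
Kif11: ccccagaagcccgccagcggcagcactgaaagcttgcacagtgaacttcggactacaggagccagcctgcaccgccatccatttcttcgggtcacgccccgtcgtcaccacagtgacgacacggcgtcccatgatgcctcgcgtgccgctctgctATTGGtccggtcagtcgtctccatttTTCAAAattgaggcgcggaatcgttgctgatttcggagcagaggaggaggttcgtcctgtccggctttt
Mcm5: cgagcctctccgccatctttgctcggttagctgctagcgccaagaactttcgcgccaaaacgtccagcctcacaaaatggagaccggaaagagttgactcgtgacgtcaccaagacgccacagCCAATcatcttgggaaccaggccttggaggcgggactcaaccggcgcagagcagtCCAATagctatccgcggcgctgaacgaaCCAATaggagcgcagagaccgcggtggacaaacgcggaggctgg
Mcm7: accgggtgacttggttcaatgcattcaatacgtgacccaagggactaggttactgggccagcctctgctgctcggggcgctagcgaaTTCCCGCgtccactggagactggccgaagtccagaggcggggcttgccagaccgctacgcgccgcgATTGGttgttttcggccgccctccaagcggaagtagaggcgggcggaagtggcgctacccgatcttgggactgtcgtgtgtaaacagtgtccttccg
Rrm1: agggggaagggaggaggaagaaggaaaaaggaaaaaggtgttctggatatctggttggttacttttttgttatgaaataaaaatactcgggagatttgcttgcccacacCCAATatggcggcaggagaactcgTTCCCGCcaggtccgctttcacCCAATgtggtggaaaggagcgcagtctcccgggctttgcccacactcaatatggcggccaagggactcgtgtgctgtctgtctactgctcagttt

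The Mki67 window held CHR matches that begin 116 and 98 bases before the start, below 3 NF-Y boxes that begin 188, 166 and 141 bases before it. In Kif11 the NF-Y box and the CHR match lay close together, and in Bub1 the CHR match followed the start. The Rrm1 window held its E2F match 67 bases before the start, between NF-Y boxes at 91 and 45 bases before it.

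Replication genes were among the most highly expressed of the set. Pcna, the sliding clamp of the replication fork (chr2:132249161-132253314), had 280 and 263 FPKM in Q-GL-, 297 and 276 in Q-GL+, 267 and 273 in Q+GL+, 243 and 280 in Pax3, and 259 and 278 in Pax7-465. The Q-GL+ libraries lay above those of Q+GL+, every other pair of these groups overlapped, and the Pax3 replicates differed by more than any 2 of the group means. Of the MCM helicase genes, Mcm6 was the highest at 121 to 142 FPKM over the 10 libraries and Mcm4 the lowest at 50.04 to 59.5 FPKM, with Mcm2, Mcm3, Mcm5 and Mcm7 in between. Rrm1, the large subunit of ribonucleotide reductase, ranged from 93.1 to 112 FPKM and its partner Rrm2 from 41.2 to 49.7 FPKM. Tyms, which makes thymidylate, ranged from 61.8 to 86.4 FPKM. Annotated pseudogenes of Pcna, Tyms and Ccnb1 exist, and reads shared with them make the levels of these 3 genes uncertain.

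The G1 genes were uneven in level. Cdk4, the kinase partner of the D-type cyclins, was the most abundant member at 296 to 351 FPKM, while Cdk6, its paralog, did not exceed 0.108 FPKM in these 10 libraries. Of the D-type cyclins, Ccnd1 was between 0.0662 and 0.312 FPKM and Ccnd3 between 9.79 and 11.4 FPKM. Ccnd3 was at 9.97 and 10.3 FPKM in Q-GL-, 10.1 and 9.92 in Q-GL+, 10.97 and 11.4 in Q+GL+, 9.79 and 10.6 in Pax3, and 9.98 and 10.5 in Pax7-465. The 2 Q+GL+ libraries were thus the highest, and the other 4 groups overlapped. Ccne2, an E-type cyclin, reached 74.1 to 90.7 FPKM and was above its paralog Ccne1, at 26.5 to 36.6 FPKM, in every library. Myc, a growth-promoting factor, was at 0.205 to 0.520 FPKM, and the highest of its values were in 1 library each of Q-GL+ and Pax7-465. E2f1 was at 19.1 to 25.4 FPKM and Cdk2 at 21.1 to 26.8 FPKM.

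Among the mitosis genes, Top2a, the topoisomerase that untangles sister chromatids, was highest at 254 to 290 FPKM, followed by Cdk1 at 202 to 258 FPKM. Mki67 encodes Ki-67, the proliferation marker that coats mitotic chromosomes (chr7:135689783-135716361). It had 72.7 and 70.8 FPKM in Q-GL-, 83.7 and 79.6 in Q-GL+, 81.4 and 76.3 in Q+GL+, 82.7 and 78.7 in Pax3, and 88.3 and 82.3 in Pax7-465. Both Q-GL- libraries were below the other 8. Among the other groups the Pax7-465 libraries lay above those of Q+GL+, and the remaining pairs overlapped. The remaining 11 mitosis genes lay between 23.6 FPKM (Bub1, a checkpoint kinase) and 84.7 FPKM (Ccna2, cyclin A2). Ccnb1 and Ccnb2, the B-type cyclins, were at 52.3 to 63.9 and 40.4 to 48.5 FPKM, and the mitotic kinases Aurka, Aurkb and Plk1 at 37.5 to 49.7, 36.4 to 42.0 and 28.8 to 37.1 FPKM.

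**Figure D1:**
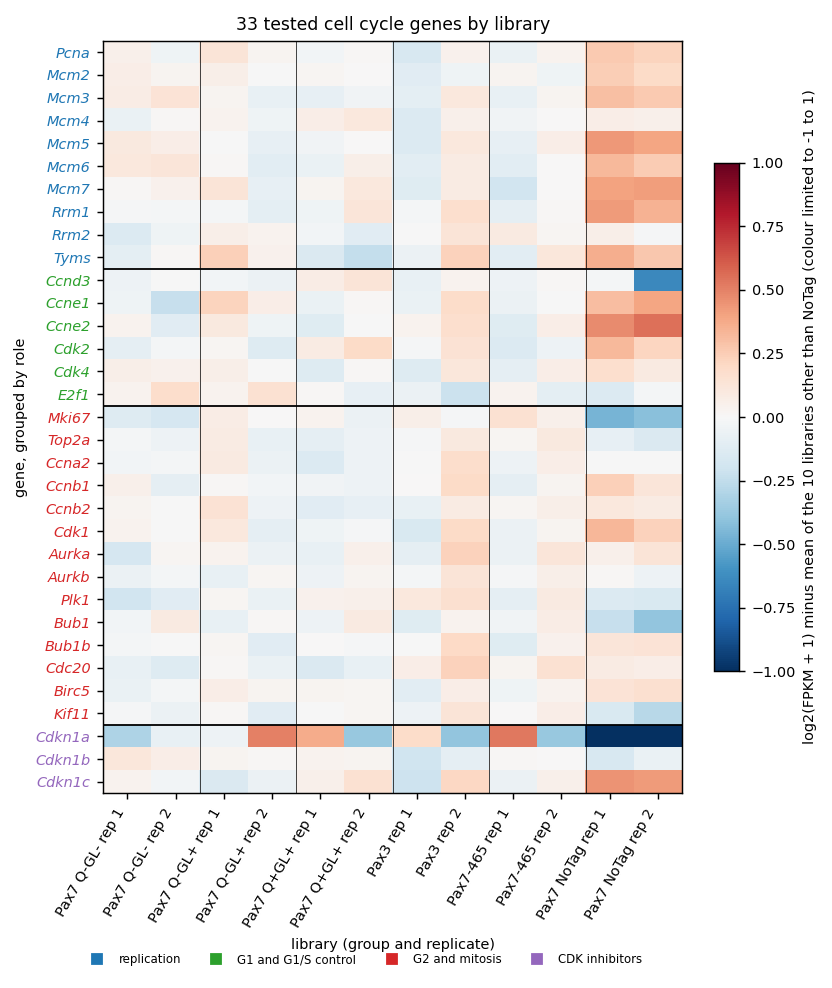
Each row is 1 of the 33 tested genes, named in the colour of its role, and each column 1 of the 12 libraries. The colour gives log2(FPKM + 1) minus the mean of the 10 libraries other than NoTag, on the scale of the table as deposited. Most genes are pale in those 10 libraries, Cdkn1a alternates between replicates, and the NoTag columns are darker.

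The first question was whether any of these genes differed among the 5 populations other than Pax7 NoTag. These expressed Pax7 isoforms, a truncation and Pax3 in the same cell line. Each group was a separate population, so the construct and the population cannot be told apart here either. None of the 33 tested genes passed the limma F-test across the 5 groups at an adjusted p under 0.05. Of all 12578 genes 4.78% passed. At that share few calls among 33 genes would be looked for, so their absence does not set the members apart. At an unadjusted p under 0.05 there were 3 members, Cdc20, Plk1 and Cdkn1b, and 2447 genes in all. Their adjusted p-values in limma were 0.174 for Cdc20, 0.218 for Plk1 and 0.251 for Cdkn1b, followed by 0.264 for Mki67 and 0.325 for Tyms. The remaining 28 genes had adjusted p-values of 0.351 or more, the value of Cdk2.

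The same held for the 10 comparisons between pairs of groups, which share groups and so are not independent. No member was called by limma in any of the 10, and 22 of the 330 differences had an unadjusted p under 0.05. Over all 12578 genes, limma called 4.17% between Q-GL- and Q-GL+, 0.962% between Q+GL+ and Q-GL+, and 2.15% between Q-GL- and Q+GL+. At an unadjusted p under 0.05 there were 2 members in each of these, beside 2349, 1667 and 1800 genes in all. For Pax3 the called share was 0.262% of genes against Q+GL+, 0.708% against Q-GL+ and 4.33% against Q-GL-. Members at an unadjusted p under 0.05 numbered 3, 3 and 5 there, beside 1285, 1279 and 2294 genes in all. For Pax7-465 the called share was 1.33% against Q+GL+, 0.795% against Q-GL+, 0.445% against Q-GL- and 1.16% against Pax3. Members at an unadjusted p under 0.05 numbered 2, 0, 2 and 1 in the same order, beside 1653, 1295, 1354 and 1369 genes in all. Leaving Cdkn1a aside, the differences of the other 32 members lay between -0.33 and 0.29 on the log2(FPKM + 1) scale, with a median size of 0.064. Their 95% confidence intervals did not extend beyond -0.57 and 0.52, so that changes larger than these lay outside the interval of every pair.

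**Figure D2:**
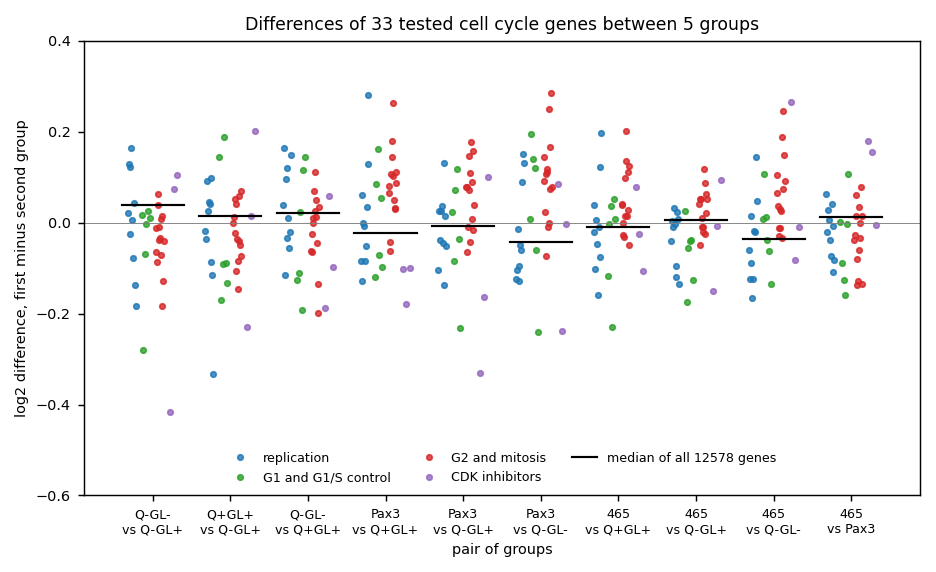
Points are the log2 differences of the 33 tested genes between the first and second group named under each of the 10 pairs, coloured by role, and the black bar is the median of all 12578 genes. All points lie between -0.42 and 0.29. The mitosis genes tend to sit above the bar in the 3 comparisons of Pax3 with an isoform. They also do so in those of the truncated Pax7 with Q-GL- and with Q+GL+.

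The largest of these differences were in individual genes. Tyms was at 86.4 and 75.2 FPKM in Q-GL+ and at 66.0 and 61.8 FPKM in Q+GL+, a log2 difference of -0.33 (SE 0.11, limma adjusted p = 0.204). Ccne1 was at 30.3 and 26.5 FPKM in Q-GL- and at 36.6 and 32.8 FPKM in Q-GL+, a log2 difference of -0.28 (SE 0.097, adjusted p = 0.141). In neither gene did the libraries of the pair overlap, and neither difference was called on the deposited scale. After quantile normalization both were called, Tyms at -0.34 (limma adjusted p = 0.0330) and Ccne1 at -0.34 (adjusted p = 0.0202). Mki67 differed by 0.25 on the log2 scale between Pax7-465 and Q-GL- (SE 0.072, adjusted p = 0.212).

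Plk1 came nearest to a call, between Pax3 and Q-GL-. Plk1, the polo-like kinase, was at 35.5 and 37.1 FPKM in Pax3 and at 28.8 and 30.4 FPKM in Q-GL-, and all of its other 6 libraries lay between these pairs. The log2 difference between Pax3 and Q-GL- was 0.29 (SE 0.077, 95% confidence interval 0.12 to 0.45), with a limma adjusted p of 0.0594, just above the threshold. Cdc20, the activator of the anaphase-promoting complex, was at 56.8 and 63.8 FPKM in Pax3, 55.1 and 60.5 in Pax7-465, 54.7 and 51.6 in Q-GL+, 51.5 and 49.5 in Q-GL-, and 48.8 and 51.3 in Q+GL+. Its difference between Pax3 and Q-GL- was 0.25 (SE 0.079, adjusted p = 0.107). Scaling decided these calls. After quantile normalization Cdc20 and Plk1 were called between Pax3 and Q-GL- (0.32 and 0.35, limma adjusted p = 0.00135 and 0.00405), and after median centring likewise (0.30 and 0.33, adjusted p = 0.0155 and 0.0105).

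Pax3 had the highest mean of the 5 groups for 9 of the 14 mitosis genes, 2 of the 10 replication genes and 12 of the 33 members, while it had the highest mean for 14.2% of all genes. The second Pax3 library was higher than the first for 13 of the 14 mitosis genes, with Cdk1 at 258 against 202 FPKM and Aurka at 49.7 against 39.7 FPKM. Without that library Pax3 was highest for 3 of the 14 mitosis genes, against 12.4% of all genes. Over all genes tested, the median log2 difference of the first Pax3 library from the second was -0.108. The first also had the lowest FPKM sum of the 12 libraries, 413794. Without the second library, the Pax3 value therefore rested on the library with that lowest sum. Over all genes, the median log2 difference of Pax3 was -0.024 against Q+GL+ and -0.0064 against Q-GL+. For Pax7-465 against Pax3 it was 0.012, so Pax3 was the lower in each of these. Whether the scale of the libraries accounts for the counts for Pax3 was not tested. The median log2 difference of the mitosis genes between Pax3 and Q-GL- was 0.0997, that of the replication genes -0.055 and that of all genes -0.043.

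Replication and mitosis genes were next compared within each library, where a scaling factor common to all genes largely drops out. The mean log2(FPKM + 1) of the 10 replication genes minus that of the 14 mitosis genes was 0.57 and 0.59 in Q-GL-, 0.55 and 0.53 in Q-GL+, 0.53 and 0.53 in Q+GL+, 0.45 and 0.48 in Pax3, 0.48 and 0.47 in Pax7-465, and 0.80 and 0.79 in Pax7 NoTag. The replicates of a group differed by at most 0.025, and the NoTag libraries were above the other 10 by at least 0.205. Among the 5 other groups, Q-GL- was highest, and Pax3 and Pax7-465, which overlapped, were lowest. As a ratio of summed FPKM, replication to mitosis was 0.857 to 0.942 in those 10 libraries and 1.07 and 1.08 in NoTag.

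The same difference was taken over 43 replication genes and 54 mitosis genes of the wider lists that are not members. It was 0.18 and 0.18 in Q-GL-, 0.15 and 0.14 in Q-GL+, 0.12 and 0.17 in Q+GL+, 0.063 and 0.10 in Pax3, 0.085 and 0.15 in Pax7-465, and 0.31 and 0.29 in NoTag. The NoTag libraries were again highest and the Q-GL- libraries next. The Pax7-465 libraries here overlapped those of Q-GL+ and Q+GL+, which they did not for the members. These values are descriptions of 12 libraries, with no test.

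**Figure D3:**
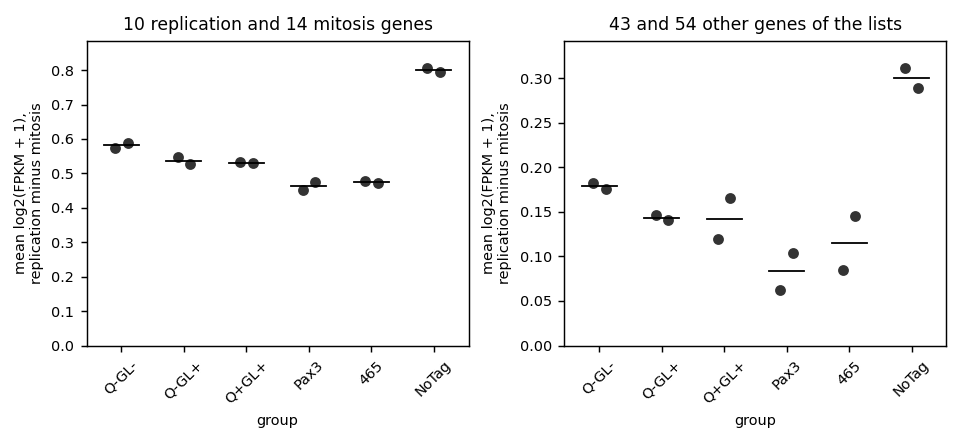
Points give, for each of 2 libraries per group, the mean log2(FPKM + 1) of replication genes minus that of mitosis genes, for the members on the left and for the other genes of the lists on the right, and bars are group means. The NoTag libraries lie highest in both panels, at 0.79 to 0.80 and 0.29 to 0.31.

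Of the 3 CDK inhibitors, Cdkn1b (p27, chr6:134920400-134925513) was the most abundant and the most even. It had 44.1 and 42.6 FPKM in Q-GL-, 41.3 and 40.9 in Q-GL+, 41.7 and 41.5 in Q+GL+, 35.2 and 38.1 in Pax3, and 40.9 and 40.8 in Pax7-465. The Pax3 libraries were below all the others, and the log2 difference between Pax3 and Q-GL- was -0.24 (SE 0.069, 95% confidence interval -0.39 to -0.089, limma adjusted p = 0.0779). Cdkn1c (p57, an imprinted gene) was at 10.97 and 10.4 FPKM in Q-GL-, 9.56 and 10.2 in Q-GL+, 11.04 and 11.96 in Q+GL+, 9.11 and 12.4 in Pax3, and 10.2 and 11.1 in Pax7-465. Here the Pax3 pair spanned the values of every other group, and the pairwise differences had adjusted p-values of 0.501 or more.

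Cdkn1a (p21, the p53-induced inhibitor, chr17:29090975-29100727) varied more between replicates of these 5 groups than any other tested member. It had 23.6 and 27.96 FPKM in Q-GL-, 28.5 and 42.2 in Q-GL+, 38.4 and 22.5 in Q+GL+, 33.6 and 22.2 in Pax3, and 43.03 and 22.4 in Pax7-465. The higher library was 1.92 times the lower in Pax7-465 and 1.71 times in Q+GL+, whereas among the other 32 members the largest such ratio in these 5 groups was 1.37, for Cdkn1c in Pax3. The Q-GL- libraries lay below those of Q-GL+, and every other pair of groups overlapped. The standard error of a pairwise difference was 0.40 for Cdkn1a, and the 95% confidence intervals were wide, for example -0.77 to 1.14 for Pax7-465 against Pax3.

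**Figure D4:**
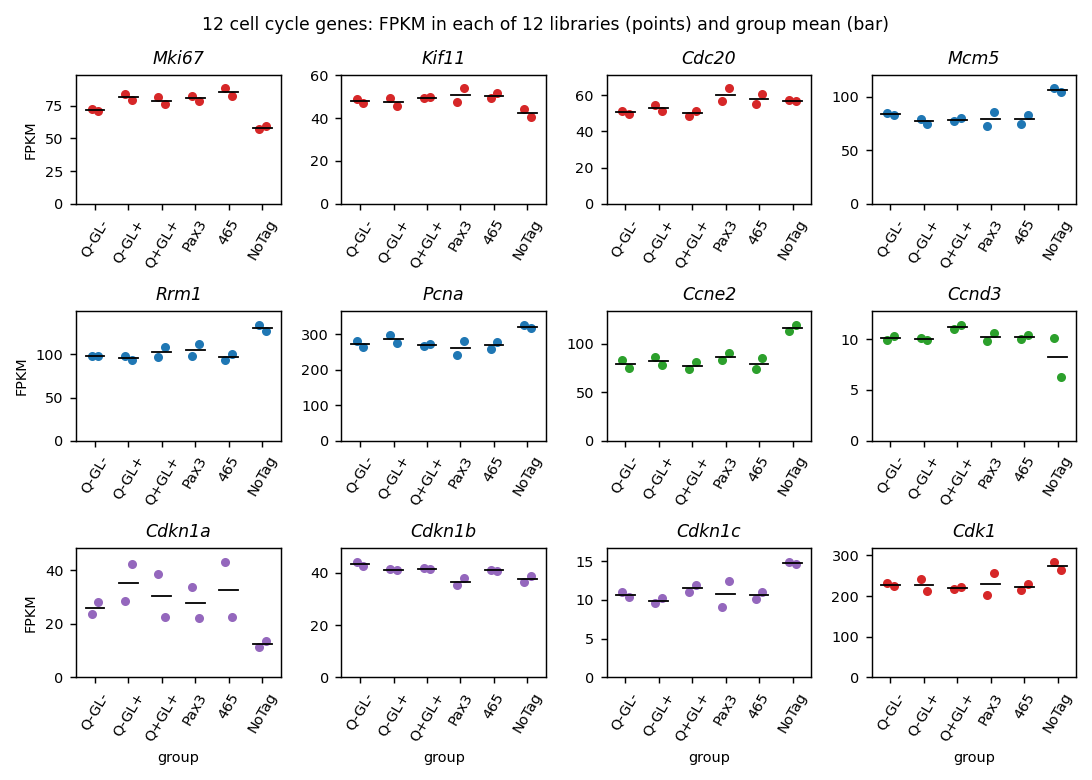
FPKM of 12 members in each library, with points for the 2 replicates and a bar for the group mean, on axes that start at 0. Mcm5, Rrm1, Pcna, Ccne2, Cdkn1c and Cdk1 are highest in NoTag on this scale, Mki67, Kif11 and Cdkn1a lowest, and Cdkn1a replicates lie far apart.

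The second comparison set Pax7 NoTag against the mean of the other 5 groups. In FPKM as deposited, limma called 15 of the 33 members higher and 5 lower in NoTag. Without the first NoTag library 11 members were called in all, and without the second 13. Since 45.6% of all genes were called higher and 10.7% lower, and the median of all genes was shifted by 0.18 on the log2 scale, the direction of each role depends on that shift. Both NoTag libraries lay above the other 10 for 14 members, against 41.3% of all genes, and below them for 4 members, against 9.13% of all genes. The members' share of higher calls was therefore near the background, and the roles are described relative to the median gene.

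The median replication gene lay above the median of all genes and the median mitosis gene below it. Of the 10 replication genes, 8 were called higher and 0 lower, with a median log2 difference of 0.29, while of the 14 mitosis genes 3 were called higher and 3 lower, with a median of 0.033. With libraries centred on their median, which was added after the data were seen, the medians were 0.099 and -0.15, with 3 replication genes called higher and 2 lower, and 0 mitosis genes called higher and 7 lower. After quantile normalization they were 0.041 and -0.19, with 3 higher and 2 lower against 0 higher and 10 lower. The split over all genes likewise moved from 5741 higher and 1344 lower to 3244 and 3195 after centring, and to 3072 and 3480 after quantile normalization.

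The genes called higher under all 3 scalings were Mcm5, Mcm7, Rrm1, Ccne2 and Cdkn1c. Mcm5 was at 108 and 105 FPKM in NoTag against 72.1 to 85.2 FPKM in the other 10 libraries, a log2 difference of 0.42 (SE 0.068, limma adjusted p = 0.000266) that was 0.16 at its smallest, after quantile normalization. Mcm7 was at 88.1 and 89.2 FPKM against 58.1 to 72.8, and Rrm1 at 134 and 127 FPKM against 93.1 to 112. The cyclin E2 gene Ccne2 showed the largest rise of the members on the deposited scale, at 113 and 119 FPKM against 74.1 to 90.7 (0.51, SE 0.072, adjusted p = 8.93e-05), and was at 0.25 after quantile normalization. Cdkn1c was at 14.9 and 14.6 FPKM against 9.11 to 12.4 (0.43, SE 0.090, adjusted p = 0.00144), and was likewise at 0.25 after quantile normalization. The Mcm7 and Rrm1 differences were then 0.17 and 0.12. In all 5 genes the NoTag libraries did not overlap the others.

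Mki67, Bub1, Kif11, Ccnd3 and Cdkn1a were called lower under all 3 scalings. Mki67 was at 57.4 and 59.4 FPKM in NoTag against 70.8 to 88.3 FPKM, a log2 difference of -0.44 (SE 0.056, limma adjusted p = 4.08e-05). Bub1 was at 21.7 and 19.3 FPKM against 23.6 to 27.5 (-0.31, SE 0.070, adjusted p = 0.00236), and Kif11, the kinesin that separates the spindle poles, at 44.0 and 40.4 FPKM against 45.4 to 53.8 (-0.21, SE 0.063, adjusted p = 0.0119). Without the second NoTag library the Bub1 and Kif11 differences were -0.23 and -0.16 and no longer called.

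Cdkn1a was at 11.5 and 13.7 FPKM in NoTag, below all 10 other libraries, at 22.2 to 43.03 FPKM. Its log2 difference was -1.17 (SE 0.31, 95% confidence interval -1.91 to -0.43, limma adjusted p = 0.0164). The call was lost without either NoTag library, with values of -1.05 and -1.28. The Ccnd3 difference of -0.33 (SE 0.12, adjusted p = 0.0275) rested on 1 library, as NoTag had 10.2 and 6.27 FPKM, and it was -0.022 without the second.

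The remaining members followed the scale used. Pcna was at 325 and 317 FPKM in NoTag, above the other 10 libraries, with a log2 difference of 0.24 (SE 0.068, limma adjusted p = 0.00938) that was -0.047 after quantile normalization. Cdk1 was at 284 and 265 FPKM against 202 to 258 FPKM (0.28, SE 0.085, adjusted p = 0.0134), and this difference was 0.095 and no longer called after centring. Mcm2, Mcm3, Mcm6, Tyms, Cdk2, Ccnb1 and Birc5, the survivin gene, were also called higher on the deposited scale and not after centring. Ccne1 (0.35, SE 0.075, adjusted p = 0.00177) was still called after centring but not after quantile normalization. No call was made on the deposited scale for Mcm4, Rrm2, Cdk4, E2f1, Top2a, Ccna2, Ccnb2, Aurka, Aurkb, Plk1, Bub1b, Cdc20 and Cdkn1b. Of these, Mcm4, Rrm2, E2f1, Top2a, Ccna2, Aurkb, Plk1 and Cdkn1b were called lower both after centring and after quantile normalization. The p27 gene Cdkn1b was at -0.11 on the deposited scale, -0.30 after centring (limma adjusted p = 0.000211) and -0.35 after quantile normalization (adjusted p = 6.31e-05), and Top2a at -0.11, -0.30 (adjusted p = 0.000236) and -0.36 (adjusted p = 2.81e-05). Cdk4, Ccnb2, Bub1b and Cdc20 were called lower after quantile normalization and not after centring. Below the filter, Myc was at 0.745 and 0.559 FPKM in NoTag, above the other 10 libraries, Ccnd1 at 0.138 and 0.140 FPKM, and Cdk6 at 0.0388 and 0.0201 FPKM, both within the range of the others.

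**Figure D5:**
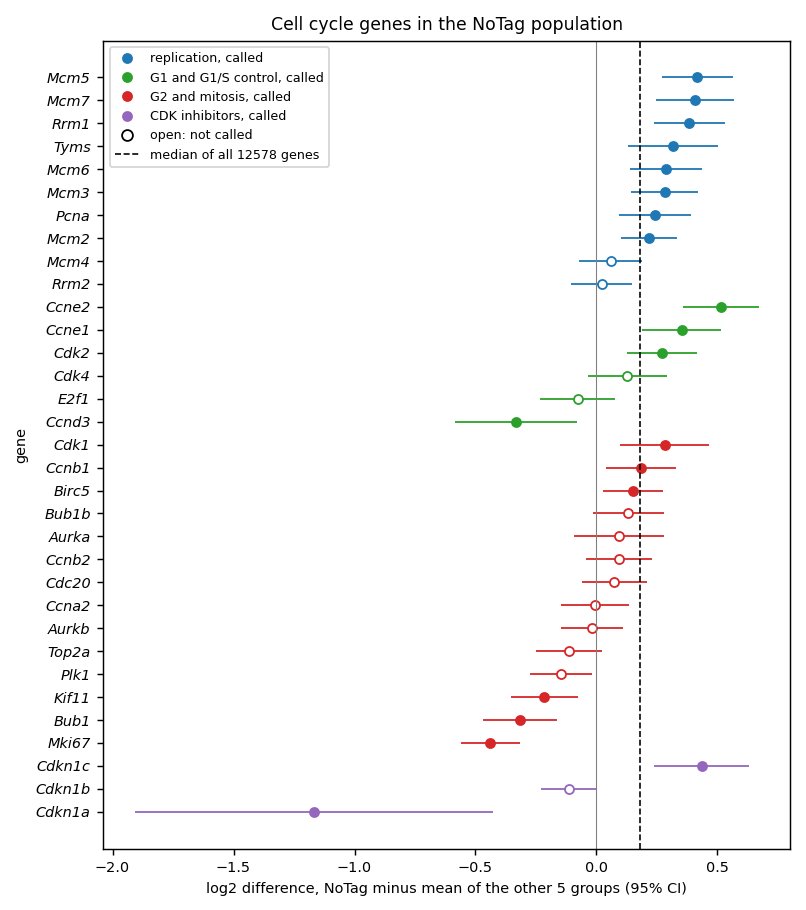
Points are log2 differences of the 33 tested genes between NoTag and the mean of the other 5 groups, with 95% confidence intervals, filled where called at an adjusted p under 0.05, in FPKM as deposited. The dashed line is the median of all 12578 genes at 0.18, which other scalings move to about 0. Most replication genes lie to the right of it and most mitosis genes to the left.

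Further genes of the pathway, from 9 lists, were read in the same fits. In the F-test across the 5 groups limma called 0 of 17 origin licensing and firing genes, 0 of 26 fork and nucleotide genes, 0 of 15 kinetochore and checkpoint genes, 0 of 24 spindle, condensin and cytokinesis genes, 0 of 15 genes of mitotic entry and exit, 0 of 18 Rb, E2F and DREAM genes and 0 of 4 INK4 inhibitors. The share called over all genes was 4.78%, at which few calls in lists of these sizes would be looked for. The kinetochore gene Cenpa, which encodes the centromeric histone variant, was nearest with an adjusted p of 0.0634. It was at 63.7 and 74.5 FPKM in Pax3 and at 51.5 and 52.7 FPKM in Q-GL-, and limma called it in that pair (0.40, SE 0.091, adjusted p = 0.0304), as it did Nek2, a centrosome kinase (0.30, SE 0.070, adjusted p = 0.0326). Of the replication-dependent histones, whose near-identical copies make single genes uncertain, 1 of 56 was called, H2bc21 (adjusted p = 0.0141), at 5.98 and 6.42 FPKM in Q+GL+ and 3.67 and 3.61 FPKM in Pax7-465.

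Of the p53 targets other than Cdkn1a, 4 of 17 were called among the 5 groups, against 4.78% of all genes. Eda2r, a death receptor of the TNF receptor family, was at 5.35 and 5.68 FPKM in Q-GL+ and at 7.90 to 10.3 FPKM in the other 4 groups (limma F-test adjusted p = 0.00319). Ccng1, cyclin G1, was at 45.5 and 41.9 FPKM in Q-GL+ and at 55.3 to 64.4 FPKM in the others (adjusted p = 0.0153), and Trp53inp1 at 26.0 and 22.0 FPKM in Q-GL+ and 28.2 to 39.5 FPKM in the others (adjusted p = 0.0126). In all 3 the Q-GL+ libraries were the lowest. Btg2, an antiproliferative gene, was lowest in Pax3, at 70.0 and 80.6 FPKM, and highest in Q-GL-, at 102 and 105 FPKM (adjusted p = 0.0323). Cdkn1a had its highest group mean in Q-GL+, the group in which the first 3 were lowest. However, Cdkn1a was not called among the 5 groups (limma F-test adjusted p = 0.928). Its Q-GL+ libraries were at 28.5 and 42.2 FPKM, so the order of its group means is uncertain.

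In NoTag, limma called 17 of the 26 fork and nucleotide genes higher and 1 lower, with a median of 0.24, against 0.18 for all genes, of which 45.6% were called higher and 10.7% lower. The values were 7 and 1 of 17 for origin licensing and firing (median 0.15), 5 and 5 of 15 for the kinetochore (0.066), 4 and 5 of 24 for the spindle (0.0048), 4 and 3 of 15 for mitotic entry and exit (0.026), and 4 and 5 of 18 for Rb, E2F and DREAM genes (0.068). Within these, the polymerase subunit gene Pola2 was at 35.9 and 34.8 FPKM against 21.4 to 26.1 FPKM (0.56, SE 0.066, adjusted p = 2.01e-05), and Orc4, an origin recognition subunit, at 25.9 and 25.3 FPKM against 34.5 to 43.6 (-0.58, SE 0.073, adjusted p = 4.06e-05). Kif23, a kinesin of cytokinesis, was at 33.6 and 30.5 FPKM against 15.5 to 18.6 (0.87, SE 0.059, adjusted p = 2.16e-07), whereas the condensin gene Ncapg was lower (-0.50, SE 0.061, adjusted p = 2.97e-05). E2f3 was at 3.93 and 4.22 FPKM against 7.17 to 11.7 (-0.9997, SE 0.12, adjusted p = 2.27e-05).

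The INK4 inhibitors of Cdk4 and Cdk6 split on the deposited scale, on which the median of all genes was shifted by 0.18. Cdkn2c was at 114 and 116 FPKM in NoTag against 86.7 to 105 (0.30, SE 0.070, limma adjusted p = 0.00349). Cdkn2d was at 51.9 and 56.0 FPKM against 59.3 to 69.8 (-0.25, SE 0.064, adjusted p = 0.00581). The p53 targets had 4 genes called higher and 6 lower of 17, against the same 45.6% and 10.7% of all genes, among them Gadd45a (0.88, SE 0.083, adjusted p = 3.49e-06) and Btg2 (-0.47, SE 0.061, adjusted p = 4.46e-05). Of the histones, 11 of 56 were called higher and 14 lower, against the same shares of all genes. Hist1h2bh and Hist1h2bm were listed at 0 in both NoTag libraries and at 42.98 to 55.6 and 25.3 to 41.9 FPKM in the other 10.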

How the data were processed

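RNA-seq of 12 libraries was analysed from 1 table of gene values. Per the study's methods, the authors trimmed strand-specific paired-end reads with Trimmomatic, mapped them with TopHat2 to Ensembl GRCm38.77 (mm10) and quantified genes with HOMER, and the values they deposited are FPKM, not counts. Read depth could not be recovered from them. Of 16 value columns, 4 matched no sample here and were not used. The authors name edgeR for their own tests, which needs counts, so limma 3.58.1 (R 4.3.3, statmod 1.5.0) was used, with a mean-variance trend and robust moderation, on log2(FPKM + 1) of the 12578 genes at 1 FPKM or more in at least 2 libraries, so a change in a low gene is understated. The model had 1 coefficient per group, and p-values were adjusted by Benjamini-Hochberg over all genes, with calls at 0.05. The procedure was tested on simulated data. Python 3.11.15 (pandas 2.3.3, numpy 2.4.6, matplotlib 3.10.9) did the rest.

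Alternatives were quantile normalization, no filter, a pseudocount of 0.1, a replicate block, and each library or the NoTag libraries left out. Median centring was added after the data were seen. All members are accounted for. Full statistics went to the CDK inhibitors, D-type cyclins, Mki67, Pcna, Myc and up to 5 members called in a comparison, by size of the difference, and for each further list to up to 3 genes by F-test p and up to 2 called genes by size of the NoTag difference. Other members given with statistics were picked after their values were seen. The members and lists were chosen with earlier results of these data known. Of the histone names, 9 were found by the older prefix and 49 were added after the names were seen. Promoters are from RefSeq (GRCm38.p6).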

Additional observations from a re-analysis of the deposited data

How the results depend on the processing

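Depth is unknown and each group had 2 libraries, so a value without 1 library of a group assumes that the other varies like the rest. Among the 5 groups the counts of called members stayed at 0 with no filter, a pseudocount of 0.1 and without the NoTag libraries. For NoTag they were 19 to 22 over all settings that kept every library. Which members these were, and in which direction, changed with quantile normalization and centring, so the steady count is not a steady set. Without 1 library, between 11 and 22 members were called for NoTag, and 0 for the F-test and 9 of the 10 pairs. Between Pax3 and Q-GL- this was 0 to 1. The single calls were Cdkn1b without Pax3 replicate 2 (-0.29, limma adjusted p = 0.0476) and Plk1 without either Pax7-465 library (0.29, adjusted p = 0.0464 in both).

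Quantile normalization called 4 members in the F-test (Cdc20, Plk1, Ccna2, Tyms). In pairs it called 4 between Pax3 and Q-GL-, 2 between Pax3 and Q+GL+ and between Q-GL- and Q-GL+, and 1 in each of Pax3 against Q-GL+, Q+GL+ against Q-GL+, Q-GL- against Q+GL+, Pax7-465 against Q+GL+ and Pax7-465 against Q-GL-. Median centring called 1 in the F-test and 2 between Pax3 and Q-GL-. Of the NoTag differences called on the deposited scale, those that reversed were Birc5 (-0.084 after quantile normalization, -0.035 after centring), Ccnb1 (-0.049 and -0.0037), Pcna (-0.047 after quantile normalization) and Mcm2 (-0.025 after quantile normalization). The uncalled differences of Mcm4, Rrm2, Cdk4, Ccnb2, Bub1b, Cdc20 and Aurka also changed from above to below 0 under both scalings, to between -0.22 and -0.11 after quantile normalization. The cause was not tested.

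Over all genes, quantile normalization raised the F-test calls from 601 to 1149. In pairs it gave 896 against 524 (Q-GL- and Q-GL+), 419 against 121 (Q+GL+ and Q-GL+), 484 against 271 (Q-GL- and Q+GL+), 133 against 33 (Pax3 and Q+GL+), 205 against 89 (Pax3 and Q-GL+), 891 against 545 (Pax3 and Q-GL-), 409 against 167 (Pax7-465 and Q+GL+), 266 against 100 (Pax7-465 and Q-GL+), 109 against 56 (Pax7-465 and Q-GL-) and 280 against 146 (Pax7-465 and Pax3). Centring gave 217 for Q+GL+ and Q-GL+, 55 for Pax3 and Q+GL+ and 161 for Pax7-465 and Q-GL+. Without the NoTag libraries these 3 were 69, 12 and 56, and Pax3 and Q-GL+ had 53 and Pax7-465 and Q-GL- 32. With no filter Pax3 and Q+GL+ had 11.

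The replicate numbers of the groups gave no clear pairing of the libraries. The deviations of same-numbered libraries from their group means correlated between -0.158 and 0.173. Libraries handled together under different numbers would not show in this check. With the replicate number as a block, 0 members were called in the F-test and in each of the 10 pairs, and 20 for NoTag, while all-gene calls between Pax3 and Q+GL+ fell to 19.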

Other observations

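The swings of Cdkn1a between replicates were looked for in other genes, chosen after their values were seen. Among 252 genes at 2 FPKM or more in the 10 libraries other than NoTag and with a standard deviation of at least 0.3 on the log2 scale, Dynll2, Gnb1 and Ahcyl1 had the patterns most like that of Cdkn1a by Pearson correlation. Dynll2, a dynein light chain gene, was at 23.0 and 28.1 FPKM in Q-GL-, 32.3 and 46.2 in Q-GL+, 36.3 and 22.8 in Q+GL+, 32.2 and 21.4 in Pax3, and 39.4 and 21.7 in Pax7-465. In each of these groups its higher library was also the higher one for Cdkn1a. Since Dynll2 was chosen by correlation over these same 10 libraries, that match is no separate evidence. In NoTag, where Cdkn1a was at 11.5 and 13.7 FPKM, Dynll2 was at 29.0 and 30.2 FPKM, within the range of the other 10 libraries. Of the 17 further p53 targets only Ccng1, Eda2r and Mdm2 were set beside Cdkn1a, and these did not show the swings. In the Pax7-465 libraries, where Cdkn1a was at 43.03 and 22.4 FPKM, Ccng1 was at 63.7 and 64.4 FPKM and Mdm2 at 58.0 and 60.3 FPKM. The other p53 targets were not compared in this way, and the cause of the swings was not tested.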
